A study of Mus musculus with 96 samples.

Results

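This account covers 8 genes of lipid metabolism in single neurons of the lateral superior olive (LSO), an auditory brainstem nucleus: Lpgat1, Abhd3, Acly, Scd2, Pgrmc1, Apoe, Clu and Lrp1. They were chosen as genes linked by earlier results of these data to the difference between the LSO neuron classes, and they are 8 of the 38887 genes of the expression table. That choice rested on the class comparison, so all class values below are descriptions, and nothing is supported by them. The label of a class difference held for 6 of the 8 genes at the size used here, whereas Apoe and Lrp1 did not reach it. That size was a difference of 1 or more between the class means of log2(TPM + 1), a change of 2-fold on that scale.

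Neurons were recorded in brainstem slices of C57BL/6J mice of both sexes at about postnatal day 11, and no treatment or transgene is named for any group. Their cytoplasm was then drawn into the patch pipette, and each neuron gave 1 library (Patch-seq). Principal LSO neurons (pLSOs), which project upwards in the auditory pathway, were labelled by their firing as Onset (41 neurons used) or Sustained (11), together 52. Lateral olivocochlear neurons (LOCs), which project to the cochlea, were labelled by delayed firing (28). The third kind of library was a negative control, for which a pipette touched the slice without harvesting a cell (8 used). No label names an animal, so each class counts as 1 sample, no test was made between classes, and all intervals are exact Clopper-Pearson 95% intervals that cover counting error only.

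Of 96 libraries, 8 were left out because their labels and the clusters of the study did not match or their values could not be relied on (3 sat in a cluster that goes against the label, 4 were found in neither cluster and 1 had doubtful values; they were labelled 3 Onset, 1 Sustained, 2 LOC and 2 controls). A gene was detected in a library at 1 TPM (the level of a transcript relative to the sum of its library) or more. The pLSOs held 1333 to 6276 detected genes (median 2560.5), the LOCs 1175 to 4408 (median 2394) and the controls 285 to 1271 (median 821). All 4 pLSO markers were higher in pLSOs, among them Spp1 in 50 of 52 pLSOs and 1 of 28 LOCs. All 5 LOC markers were higher in LOCs. These markers are among the genes that the study named from its clusters of these same neurons. Libraries at odds with those clusters had been left out, so the agreement was built in and is no check of the labels. Read counts are not among the data, and the sequencing depth of a value is therefore unknown. The scale of the TPM values followed the position of a gene in the table and not its length. Across 10249 genes, the median level where detected had a Spearman's rho of -0.80 with the row number and -0.05 with the exon length, so levels of different genes are not compared here.

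Neurons build and remodel membranes with a small set of lipid pathways. Citrate leaves the mitochondria and is split by ATP citrate lyase (ACLY) into acetyl-CoA, the building block of fatty acids and of cholesterol, and desaturases such as SCD2 then introduce double bonds. The phospholipids made from these fatty acids are edited by acyltransferases such as LPGAT1 and hydrolases such as ABHD3. Cholesterol and other lipids also reach neurons from glia on particles that carry apolipoprotein E (APOE) or clusterin (CLU, apolipoprotein J), which are taken up by endocytic receptors such as LRP1.

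RefSeq (GRCm38.p6) sequences of the 250 bases before a RefSeq transcript start are shown for 4 genes, Lpgat1 as the one of the 8 that best separated pLSOs from LOCs by rank, Acly and Pgrmc1 as the genes with the largest differences towards LOCs, and Slc25a1, the citrate exporter that acts before ACLY. They are written 5′ to 3′ on the strand of the gene, and capitals mark GC boxes (GGGCGG on either strand). For Lpgat1, RefSeq gives 2 starts, both of them inside the gene as Gencode bounds it, and the window of the first is shown.
Lpgat1, chr1:191717774-191718023, plus strand: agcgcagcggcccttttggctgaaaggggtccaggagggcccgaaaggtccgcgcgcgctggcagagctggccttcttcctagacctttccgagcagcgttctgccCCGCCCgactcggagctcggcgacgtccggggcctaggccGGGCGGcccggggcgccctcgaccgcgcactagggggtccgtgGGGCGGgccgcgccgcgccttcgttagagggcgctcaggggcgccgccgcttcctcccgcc
Acly, chr11:100528001-100528250, minus strand: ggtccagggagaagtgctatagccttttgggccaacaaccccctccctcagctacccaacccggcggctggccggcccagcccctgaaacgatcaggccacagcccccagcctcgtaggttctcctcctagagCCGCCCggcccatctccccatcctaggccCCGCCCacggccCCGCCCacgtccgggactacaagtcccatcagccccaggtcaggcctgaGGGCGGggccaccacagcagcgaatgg
Pgrmc1, chrX:36597943-36598192, plus strand: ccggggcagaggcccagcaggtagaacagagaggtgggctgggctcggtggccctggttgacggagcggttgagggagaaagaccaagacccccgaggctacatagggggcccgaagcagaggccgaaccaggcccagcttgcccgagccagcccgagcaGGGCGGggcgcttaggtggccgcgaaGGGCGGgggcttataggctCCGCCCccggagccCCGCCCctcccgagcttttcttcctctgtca
Slc25a1, chr16:17928220-17928469, minus strand: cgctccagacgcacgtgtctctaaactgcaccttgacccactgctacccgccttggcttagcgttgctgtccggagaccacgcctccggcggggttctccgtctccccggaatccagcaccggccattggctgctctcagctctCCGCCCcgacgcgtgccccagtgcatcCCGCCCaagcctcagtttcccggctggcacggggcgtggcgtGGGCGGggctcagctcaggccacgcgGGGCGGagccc

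The window of Lpgat1 shown held 3 GC boxes, that of its other start held 2, and those of Acly, Pgrmc1 and Slc25a1 held 4 each, on both the pLSO and the LOC side of the comparison. Of the windows searched but not shown, those of Lrp1 and Cyp51 held 1 each and all of those of Apoe held 0. A GC box was present in 32.7% of 32851 promoter windows of this length. The windows of Acly, Pgrmc1 and Lpgat1 held no CCAAT, no CACGTG and no TCACNCCAC (a sterol regulatory element) on either strand, and these motifs were present in 33.8%, 6.02% and 1.05% of all windows. The window of Slc25a1 held 1 CCAAT and 1 CACGTG. These letters are a description of the windows and not of bound sites.

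Among the enzymes that edit phospholipids, Lpgat1 and Abhd3 had higher levels in pLSOs. Lpgat1 (chr1:191717834-191784255, GRCm38) encodes an acyltransferase that attaches fatty acids to lysophospholipids. It was detected in 50 of 52 pLSOs (96.2%, interval 86.8% to 99.5%) at 0 to 1021 TPM with a median of 169. In LOCs it was detected in 13 of 28 (46.4%, interval 27.5% to 66.1%) at 0 to 147 TPM with a median of 0. The classes overlapped, but 30 pLSOs lay above the highest LOC, and most LOCs with the transcript held only a trace of it (median 3 TPM where detected). At 100 TPM or more there were 36 pLSOs and 2 LOCs. The mean level was 19.7 times higher in pLSOs (224 against 11.4 TPM, or 35.2 times with 6.37 TPM in LOCs without the highest LOC), and the difference of mean log2(TPM + 1) was 5.42 (SD over neurons 2.52 in pLSOs and 2.01 in LOCs). Of the 10319 genes detected in at least 5% of the neurons, 2 had a larger difference towards pLSOs. Such a rank depends on the TPM scale of each gene. By the probability that a randomly drawn pLSO was above a LOC (0.932), which uses only the order within a gene, 5 genes were higher.

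The difference of Lpgat1 between Onset and Sustained neurons was 2.70 in mean log2(TPM + 1). Onset neurons held 0 to 1021 TPM (median 199) and Sustained neurons 0 to 301 TPM (median 29). The shares of neurons with the transcript were alike, with 40 of 41 and 10 of 11, but at 100 TPM or more there were 33 of 41 Onset neurons and 3 of 11 Sustained neurons. A randomly drawn Onset neuron was above a Sustained neuron with a probability of 0.804 (ties counted as equal parts), and 2 genes of the 10319 had a higher value. Sustained neurons in turn were above LOCs by 3.28. Lpgat1 thus took an intermediate place in Sustained neurons between the other firing types, by mean and by median.

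**Figure D1:**
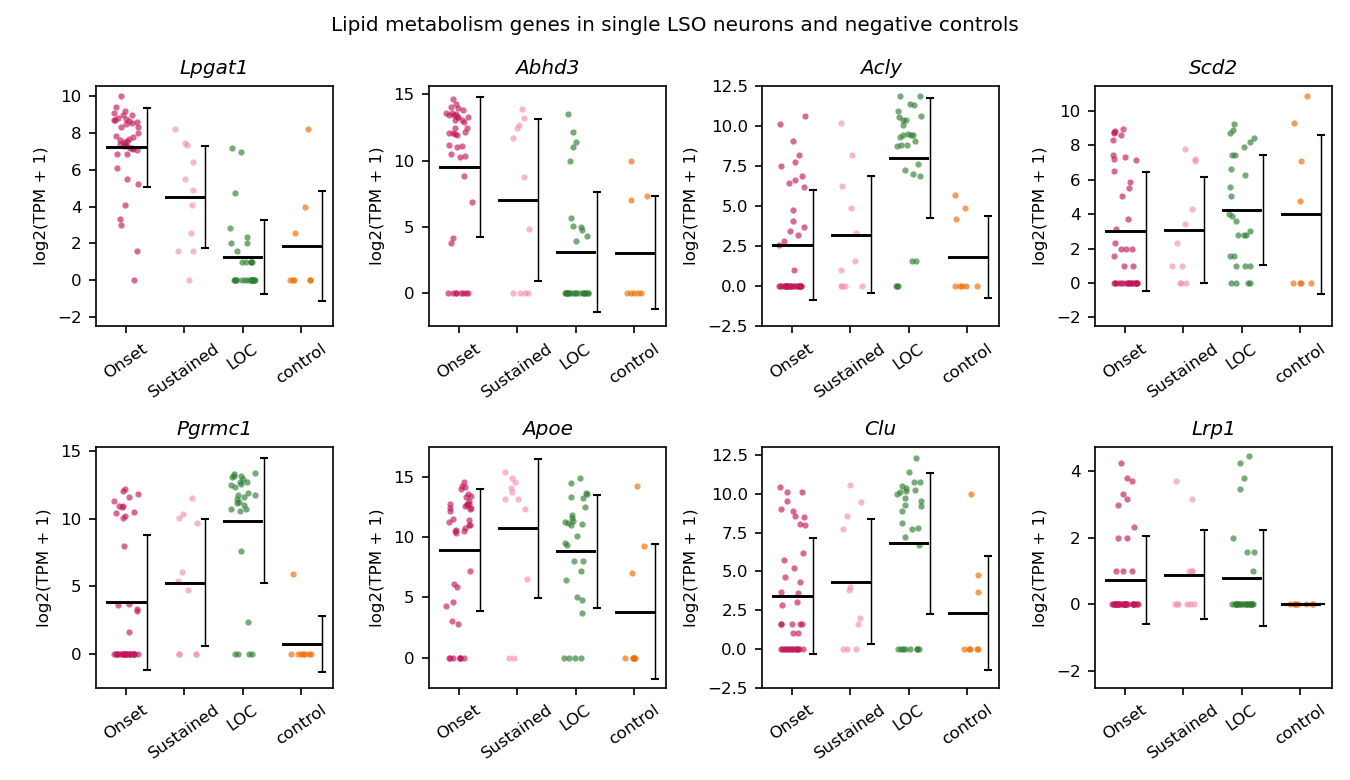
Level of each gene, as log2(TPM + 1), in 41 Onset, 11 Sustained and 28 LOC neurons and 8 negative controls; each point is 1 library, the horizontal bar the mean and the vertical bar 1 SD over libraries. Lpgat1 and Abhd3 are highest in Onset neurons and Acly, Pgrmc1 and Clu in LOCs, whereas Apoe and Lrp1 spread alike in pLSOs and LOCs.

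Abhd3 (chr18:10642092-10706771), a hydrolase that cleaves phosphatidylcholines with short or oxidised chains, was either at 0 or high in most pLSOs. It was detected in 40 of 52 pLSOs (76.9%, interval 63.2% to 87.5%) at 0 to 25767 TPM with a median of 4049.5, and in 11 of 28 LOCs (39.3%, interval 21.5% to 59.4%) at 0 to 11918 TPM with a median of 0. Values of 0 occurred in both classes, so the ranges overlapped, and 34 pLSOs and 5 LOCs had 1000 TPM or more. At an unknown depth, a value of 0 does not show that the transcript was absent. The mean level was 7.00 times higher in pLSOs (5643 against 807 TPM). The mean of the LOCs was carried by a few neurons and was 395 TPM without the highest. The difference of mean log2 levels was 5.91 (SD 5.51 in pLSOs and 4.53 in LOCs), and 1 gene had a larger one. This rank depends on the TPM scale of each gene. By the probability that a pLSO was above a LOC (0.777), 27 genes were higher. Within pLSOs the log2 difference was 2.48 in favour of Onset neurons, with 33 of 41 Onset and 7 of 11 Sustained neurons holding the transcript. The median level of the neurons that held it was alike, with 5702 TPM in Onset and 5791 TPM in Sustained neurons.

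Relatives of both genes had smaller differences. Lpgat1 and Abhd3 were chosen on this comparison, so such a gap was built in. Abhd6, a monoacylglycerol lipase, was detected in 20 pLSOs and 7 LOCs with a difference of 0.76, and Abhd12, a lysophosphatidylserine lipase, in 23 and 12 with a difference of 0.09. Abhd4 was detected in 2 pLSOs and 1 LOC, and Lclat1, an acyltransferase that acts on lysocardiolipin, in 1 and 2. Of 25 other acyltransferases and lipases of phospholipids that could be compared, 0 reached a difference of 1 in either direction, beside 6.99% of all genes towards pLSOs and 4.68% towards LOCs, and their values ran from -0.81 to 0.86.

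Acly (chr11:100476353-100528000) was the gene with the clearest preference for LOCs by rank. It was detected in 25 of 28 LOCs (89.3%, interval 71.8% to 97.7%) at 0 to 3777 TPM with a median of 666, and in 25 of 52 pLSOs (48.1%, interval 34.01% to 62.4%) at 0 to 1571 TPM with a median of 0. Most LOCs thus lay high, with 23 of 28 above the upper quartile of the pLSOs, but 3 pLSOs exceeded the median of the LOCs. The mean level was 8.57 times higher in LOCs (989 against 115 TPM). The difference of mean log2 levels was -5.31, where a negative sign means a higher level in LOCs (SD 3.47 in pLSOs and 3.76 in LOCs). On this scale 7 genes had a larger difference towards LOCs. By the probability that a LOC was above a pLSO (0.842), 8 genes were higher. Onset and Sustained neurons differed by -0.67 in mean log2 level, which is small beside the SD of 3.44 and 3.68.

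Pgrmc1 (chrX:36598206-36606079) encodes a haem-binding membrane protein that binds cytochromes P450, among them the sterol demethylase CYP51. It was detected in 24 of 28 LOCs (85.7%, interval 67.3% to 96.0%) at 0 to 10823 TPM with a median of 3238.5, and in 25 of 52 pLSOs (48.1%, interval 34.01% to 62.4%) at 0 to 4763 TPM with a median of 0. The ranges overlapped, while 11 LOCs lay above the highest pLSO. The mean level was 5.98 times higher in LOCs (4111 against 688 TPM), and the difference of mean log2 levels was -5.74 (SD 4.92 in pLSOs and 4.63 in LOCs). On this scale 4 genes had a larger difference towards LOCs. By the probability that a LOC was above a pLSO (0.824), 13 genes were higher. Within pLSOs the log2 difference was -1.44 towards Sustained neurons, yet the mean was 717 TPM in Onset and 579 TPM in Sustained neurons (334 TPM without the highest), so the order depended on the scale. Its relative Pgrmc2 was detected in 2 pLSOs and 2 LOCs, and Nenf, a secreted relative with the same haem-binding fold, had a difference of 0.00.

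**Figure D2:**
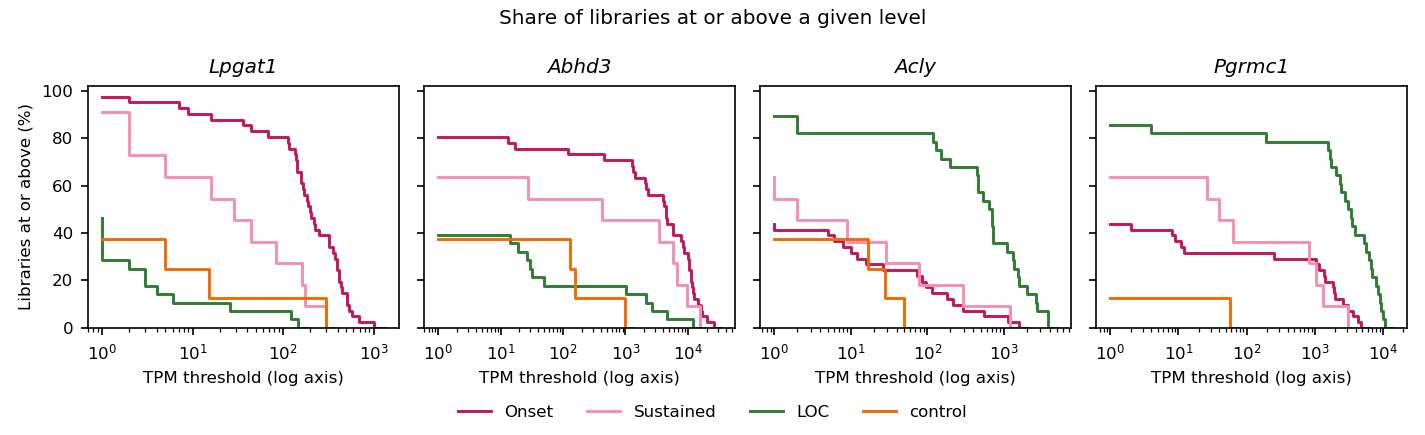
Share of libraries (%) at or above a TPM threshold (log axis) for Lpgat1, Abhd3, Acly and Pgrmc1 in Onset, Sustained and LOC neurons and negative controls. The share of Onset neurons with Abhd3 changes little between 1 TPM (80.5%) and 1000 TPM (70.7%), and so does that of LOCs with Pgrmc1 (85.7% and 78.6%), while Lpgat1 in Sustained neurons falls off at lower levels than in Onset neurons.

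Scd2 (chr19:44293674-44306864), a brain-enriched stearoyl-CoA desaturase, reached the size of a class difference by a small margin. It was detected in 24 of 28 LOCs (85.7%, interval 67.3% to 96.0%) at 0 to 601 TPM with a median of 12.5, and in 31 of 52 pLSOs (59.6%, interval 45.1% to 73.0%) at 0 to 496 TPM with a median of 2.5. The ranges were nearly the same, and the difference of mean log2 levels of -1.23 was less than the SD of 3.35 in pLSOs and 3.18 in LOCs. The mean was 1.45 times higher in LOCs (110 against 75.8 TPM). The negative controls had a mean of 335 TPM, or 113 TPM without the highest, with 4 of 8 controls holding the transcript at up to 1886 TPM, and the part of RNA from outside the neurons in the values of Scd2 was not tested. The related desaturase Scd1 was detected in 2 pLSOs and 1 LOC.

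Among the lipid carriers, Clu and Apoe differed in their pattern. Clu (chr14:65968483-65981547), an extracellular chaperone and apolipoprotein made by astrocytes and some neurons, was detected in 20 of 28 LOCs (71.4%, interval 51.3% to 86.8%) at 0 to 5105 TPM with a median of 533. In pLSOs it was detected in 34 of 52 (65.4%, interval 50.9% to 78.0%) at 0 to 1497 TPM with a median of 2.5. The shares were therefore alike and the classes differed in the level of the neurons that held it, with a median where detected of 940 TPM in LOCs and 30.5 TPM in pLSOs. The mean level was 4.38 times higher in LOCs (819 against 187 TPM), and the difference of mean log2 levels was -3.20 (SD 3.78 in pLSOs and 4.56 in LOCs).

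Apoe (chr7:19696109-19699188), the main lipid carrier of the brain, which astrocytes and microglia secrete, was present in most neurons of both classes. It was detected in 43 of 52 pLSOs (82.7%, interval 69.7% to 91.8%) at 0 to 43311 TPM with a median of 2805.5, and in 24 of 28 LOCs (85.7%, interval 67.3% to 96.0%) at 0 to 31393 TPM with a median of 1606.5. The distributions overlapped almost completely. A pLSO was above a LOC with a probability of 0.558, and the difference of mean log2 levels was 0.48 (SD 5.25 and 4.69). Its sign turned to -0.37 when only neurons with more than the median number of detected genes were compared.

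Apoe was also compared within the pLSOs. Sustained neurons held 0 to 43311 TPM (median 9267) and Onset neurons 0 to 24231 TPM (median 2115), with means of 13979 and 4753 TPM and a log2 difference, Onset minus Sustained, of -1.80 (SD 5.10 and 5.81). The shares with the transcript were 9 of 11 and 34 of 41, so the ranges overlapped and the order lay in the upper values. With all labelled neurons the difference was -0.68, and that between the classes was 0.66. The neurons so added were a Sustained neuron listed at 0, Onset neurons at 355, 14811 and 18322 TPM, and LOCs at 0 and 4082 TPM. Markers of microglia moved the same way, with a median difference, Onset minus Sustained, of -1.33 over 10 markers, against -0.16 for astrocytes and -0.18 for oligodendrocytes. The summed microglia level was 0 to 5038 TPM (median 58) in Onset and 1 to 6005 TPM (median 525) in Sustained neurons. In this sum each marker weighs by its own TPM scale. No microglia marker was at 0 over all Onset or all Sustained neurons, and the part of these markers in the values of Apoe was not tested. The neuron with the most detected genes (6276), a Sustained neuron, held all 10 markers of each of the 3 glial lists and 24489 TPM of Apoe. Without it the Sustained mean was 12928 TPM and the log2 difference -1.41.

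Lrp1 (chr10:127538161-127621148), the endocytic receptor for APOE, was detected in 17 of 52 pLSOs (32.7%, interval 20.3% to 47.1%) at 0 to 18 TPM and in 8 of 28 LOCs (28.6%, interval 13.2% to 48.7%) at 0 to 21 TPM, with a median of 0 in both. The difference of mean log2 levels was -0.01 (SD 1.31 and 1.45). A difference was thus not detectable at these levels, and whether it is absent cannot be said at an unknown depth. Lrp8, a related receptor that also binds APOE, was detected in 11 pLSOs and 9 LOCs. Apod, a further carrier, was detected in 15 pLSOs and 9 LOCs, with means of 34.9 and 101 TPM (48.2 TPM in LOCs without the highest) and of 948 TPM in the controls (272 TPM without the highest).

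**Figure D3:**
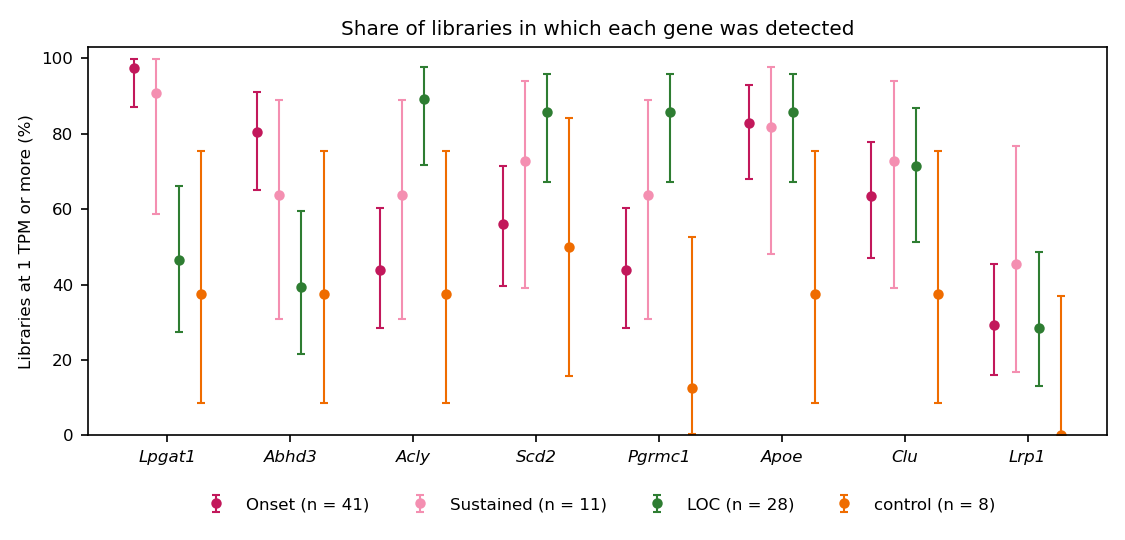
Share of libraries (%) with each gene at 1 TPM or more, with exact Clopper-Pearson 95% intervals, in 41 Onset, 11 Sustained and 28 LOC neurons and 8 negative controls. Lpgat1 and Abhd3 have the lower share in LOCs and Acly and Pgrmc1 the higher share, whereas the shares of Apoe, Clu and Lrp1 in Onset neurons and LOCs lie within each other's intervals.

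The negative controls give the level of RNA outside the harvested neurons. They held fewer detected genes, so that a single transcript takes a larger part of the total. Lpgat1 was detected in 3 of 8 controls at 5, 15 and 297 TPM, and Abhd3 in 3 of 8 at 128, 156 and 992 TPM. For Lpgat1, the share of 37.5% in controls (interval 8.5% to 75.5%) was close to that in LOCs, and for Abhd3 likewise, so the mere presence of either transcript in LOCs cannot be told apart from this background, although 5 LOCs held more Abhd3 than any of these 8 controls. A control that was left out held 13499 TPM of Abhd3, above the highest LOC, and 3906 TPM of Pgrmc1, above the median of the LOCs. Acly reached 17, 28 and 50 TPM in 3 controls, and Pgrmc1 reached 58 TPM in 1. Both were below the medians of the LOCs in each of the 8 controls. The control interval of Acly (8.5% to 75.5%) held its share in pLSOs (48.1%), as did that of Pgrmc1 (0.3% to 52.7%, share 48.1%) and that of Scd2 (15.7% to 84.3%, share 59.6%). That of Clu (8.5% to 75.5%) held its shares in pLSOs (65.4%) and LOCs (71.4%). The mere presence of these transcripts there cannot be told apart from this background either. Clu was at 12, 26 and 1043 TPM in 3 controls and Apoe at 128, 624 and 19839 TPM in 3, while Lrp1 was detected in 0 of 8 controls, which allows a share of up to 37.5% by the rule of 3 over n and 36.9% by the exact interval.

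Read against all genes, the class differences of 6 of the 8 genes reached 1 on the log2 scale, 2 of them towards pLSOs and 4 towards LOCs. Of all 10319 genes compared, 6.99% (721) were higher by this size in pLSOs and 4.68% (483) in LOCs. The genes were chosen on this same comparison, so nothing is read from their count. By the share of neurons with the transcript, a gap of 25 points was reached towards pLSOs by Lpgat1 (49.7 points) and Abhd3 (37.6) beside 3.06% of all genes, and towards LOCs by Acly (-41.2), Pgrmc1 (-37.6) and Scd2 (-26.1) beside 1.8% of all genes. Between Onset and Sustained neurons, Lpgat1 and Abhd3 reached the size towards Onset, as did 4.78% of all genes, and Apoe and Pgrmc1 towards Sustained, as did 10.3%. The calls of Apoe and Pgrmc1 were lost under single alternatives (-0.68 with all labelled neurons and -0.74 with a pseudocount of 10).

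The genes were also counted together in single neurons, where the counts follow largely from the single shares that chose the genes. Acly, Pgrmc1, Scd2 and Clu were all detected in 15 of 28 LOCs, in 5 of 52 pLSOs and in 0 of 8 controls. Lpgat1 and Abhd3 were both present in 39 pLSOs and 6 LOCs, and Acly and Pgrmc1 in 13 pLSOs and 21 LOCs. Within a class, Spearman's rho was 0.11 between Lpgat1 and Abhd3 over 52 pLSOs and 0.02 between Acly and Pgrmc1 over 28 LOCs. Over all pairs of the 8 genes it ran from -0.26 (Scd2 and Pgrmc1) to 0.29 (Apoe and Lrp1) in pLSOs. In LOCs it ran from -0.33 (Acly and Lrp1) to 0.40 (Lpgat1 and Apoe). The values of a library share its depth and its total, and these coefficients are descriptions.

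The rest of lipid metabolism was described with 5 lists of 102 further genes, of which 85 were detected in at least 5% of the neurons. Of these, 3 (3.53%) were higher in pLSOs and 7 (8.24%) in LOCs by the same size, beside 6.99% and 4.68% of all genes, and their median difference was 0.02 against 0.07 for all genes. Both medians lay near 0, and the 85 genes had no common direction.

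Fatty acid synthesis held members on both sides, 3 and 3 of 18 (16.7% each), beside 6.99% of all genes towards pLSOs and 4.68% towards LOCs. Slc25a1, the mitochondrial citrate exporter, was detected in 14 of 28 LOCs and 13 of 52 pLSOs, with means of 1084 and 168 TPM (617 TPM in LOCs without the highest) and a difference of -2.57. It thus lay on the same side as Acly, the next step of the route. Acaca, which turns acetyl-CoA into malonyl-CoA, was detected in 12 LOCs and 9 pLSOs with a difference of -1.22. The pLSOs had a mean of 128 TPM, which was 79.0 TPM without their highest neuron, and the LOCs one of 79.7 TPM. Fasn, the fatty acid synthase, was detected in 25% of either class with a difference of -0.08. Hsd17b12, a reductase of the elongation cycle, had a difference of -1.29.

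Of the enzymes of fatty acid elongation, 3 reached the size towards pLSOs. Elovl4, which makes very long chains, was detected in 32 pLSOs and 8 LOCs with means of 26.2 and 4.79 TPM and a difference of 1.71, and Elovl5, which extends polyunsaturated chains, in 20 and 3 with a difference of 1.02. Hacd3, a dehydratase of the same cycle, was detected in 28 pLSOs and 8 LOCs with a difference of 1.35. Its difference between Onset and Sustained neurons was 1.57 towards Onset, larger than that between the classes. The controls had higher means of Elovl4 (143 TPM) and Elovl5 (42.6 TPM) than the pLSOs through 1 library each, without which they were at 3.29 and 0 TPM. Elovl7, with a difference of 0.90, and Pgs1, which starts the synthesis of phosphatidylglycerol, with 0.86, were the next in order and did not reach 1.

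Of 20 genes of cholesterol synthesis, 3 (15%) were higher in LOCs and 0 in pLSOs, beside 4.68% and 6.99% of all genes. Cyp51, the sterol demethylase, was detected in 15 of 28 LOCs and 22 of 52 pLSOs. Its means were 2412 and 861 TPM and the difference was -1.54. A pLSO was above a LOC with a probability of 0.42. Within pLSOs the difference of Cyp51, Onset minus Sustained, was -3.19, larger in size than that between the classes. The means were 688 TPM in Onset and 1504 TPM in Sustained neurons (733 TPM without the highest). Between the classes, Msmo1, which removes the next methyl groups, followed with -1.29 (13 LOCs and 16 pLSOs) and Tm7sf2, a sterol reductase, with -1.01 (10 and 6). Msmo1 and Tm7sf2 had a median of 0 TPM in either class. Of the 8 genes of sterol sensing and the relatives of PGRMC1, 0 reached the size, and of 14 carriers, receptors and efflux genes only Lipa, the lysosomal acid lipase, did (-1.20).

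**Figure D4:**
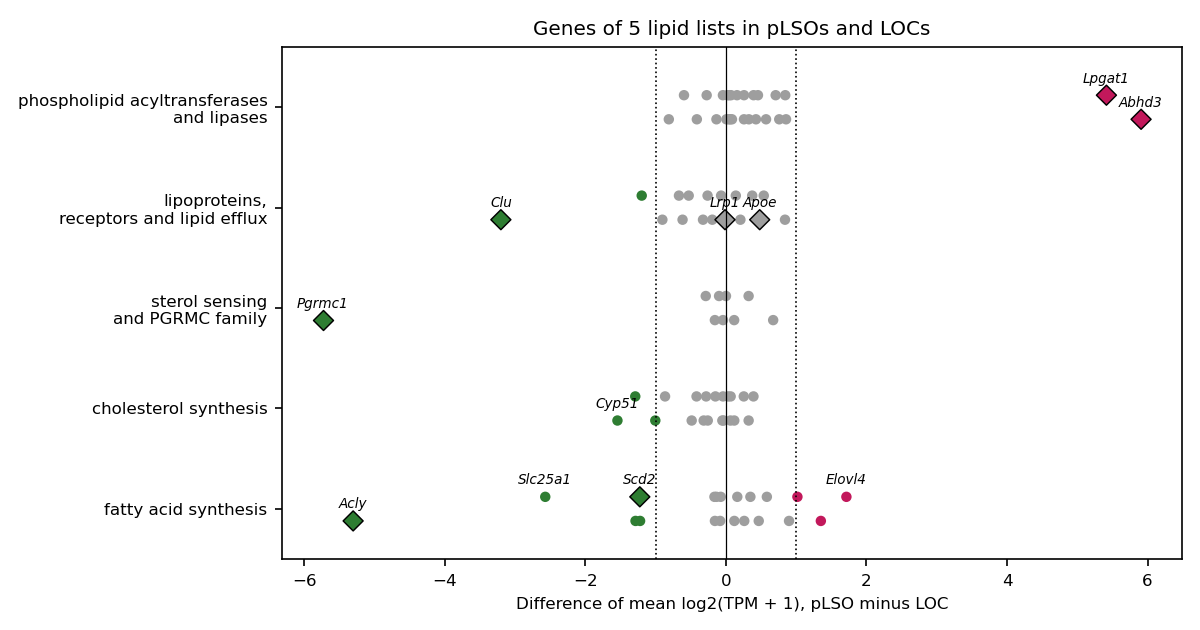
Mean log2(TPM + 1) in pLSOs less that in LOCs, for the genes of 5 lipid lists that were detected in at least 5% of the neurons; diamonds are the 8 genes described here, circles other genes, dotted lines mark a difference of 1 in either direction and colours genes beyond them. Lpgat1 and Abhd3 lie beyond 25 other acyltransferases and lipases, which lie between -0.81 and 0.86, and Acly has Slc25a1 on its side. The 8 genes were chosen on this comparison, so the gap of Lpgat1 and Abhd3 to the others was built in.

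Markers of other cell types were set beside the genes, since glia make lipids and lipid carriers in quantity. Of 10 astrocyte markers 1 was higher in pLSOs (Sparcl1, 4.80) and 0 in LOCs, of 10 microglia markers 1 was higher in pLSOs and 0 in LOCs, and of 10 oligodendrocyte markers 2 were higher in LOCs, among them Mbp (-1.02), and 0 in pLSOs. All 8 controls held Mbp. The summed level of the astrocyte markers was 116 to 9167 TPM in pLSOs and 0 to 26599 TPM in LOCs, with Aldh1l1 and Gja1 at 0 in all LOCs. Such a sum weighs each marker by its own TPM scale and is no measure of a cell type. Sparcl1 alone was detected in 52 pLSOs and 21 LOCs, with means of 260 and 31.5 TPM. That of the oligodendrocyte markers was 0 to 13246 and 1 to 26715 TPM, and that of the microglia markers was 0 to 6005 and 0 to 3006 TPM. Apoe was the gene that most followed the astrocyte list in LOCs, with a rho of 0.55 (28 neurons) and of 0.33 in pLSOs (52 neurons), and its rho with the oligodendrocyte list was 0.47 and 0.29. Scd2 had a rho of 0.44 with the astrocyte list in pLSOs and 0.33 in LOCs. Clu, although it is a gene of astrocytes, had a rho of 0.18 in LOCs and 0.04 in pLSOs, and Acly and Lpgat1 had negative ones in one class or both. With the microglia list, rho in pLSOs and LOCs was 0.30 and 0.36 for Apoe, 0.14 and 0.39 for Scd2, and 0.41 and 0.02 for Lrp1. The part of glial RNA in any of these values was not tested.

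**Figure D5:**
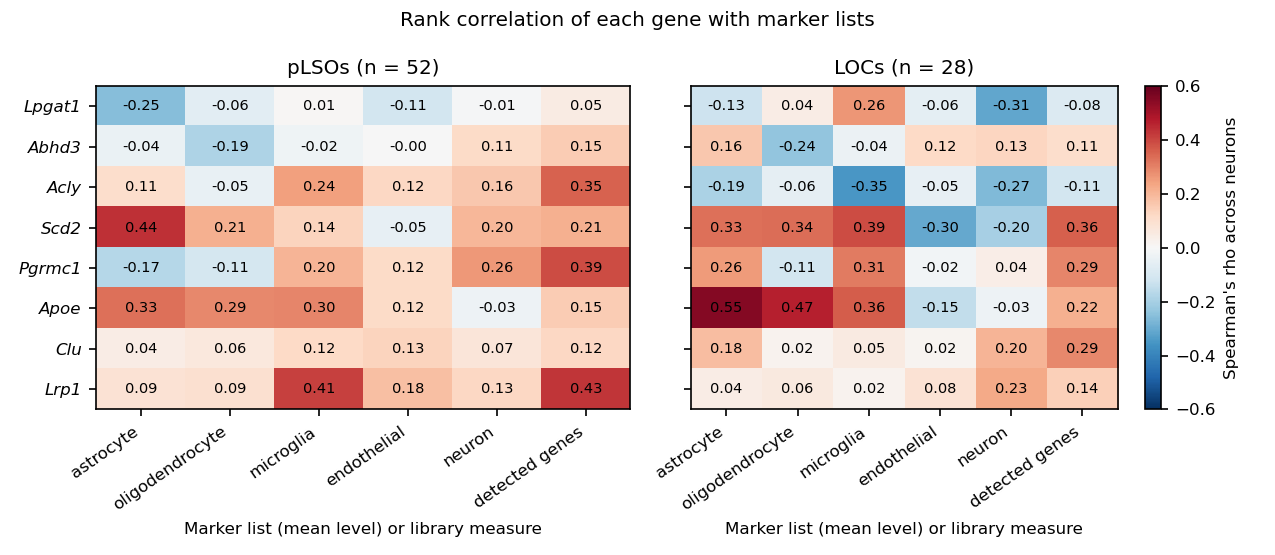
Spearman's rho across 52 pLSOs (left) and 28 LOCs (right) between the level of each gene and the mean level of 5 marker lists or the number of detected genes. The highest value is that of Apoe with the astrocyte list in LOCs (0.55), and the row of Lpgat1 shows no positive value with the astrocyte list in either class.

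Electrical properties recorded in the same neurons varied little with the genes within a class. Over 128 pairs of a gene and a property, rho ran from -0.40 to 0.41 in pLSOs and from -0.42 to 0.56 in LOCs, with a median size of 0.0912 and 0.116. The highest were the resting potential of LOCs with Abhd3 (0.56) and with Pgrmc1 (0.51), each over 19 neurons with a value, of which 8 held Abhd3 and 18 Pgrmc1. In pLSOs the decay time of spontaneous excitatory currents had a rho of 0.41 with Apoe over 49 neurons, but of 0.15 over the 39 Onset neurons alone. These are the ends of a range of many pairs and are given as a description.

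The genes whose level followed each of the 8 most closely, after the class mean was taken from every neuron, did so only weakly. Among 3799 genes detected in at least 20 of the 80 neurons, the highest Pearson's r lay between 0.40 and 0.47. Lpgat1 was followed by Hspa12a (0.40), Pomp (0.39) and Chga (0.37), and Abhd3 by Chga (0.43), Nap1l3 (0.40) and BC031181 (0.40). Chga, which encodes a secretory granule protein, was near both genes of the pLSO side. Acly was followed by Fkbp8 (0.45), Gem (0.41) and Tomm40 (0.40), and Pgrmc1 by Mrps18a (0.43), Klf7 (0.39) and Coro6 (0.39). Fkbp8 and Tomm40 encode proteins of the outer mitochondrial membrane and Mrps18a one of the mitochondrial ribosome. How common mitochondrial proteins are among the 3799 genes was not tested. Scd2 was followed by Dnajc6 (0.43), Appbp2 (0.41) and Arf5 (0.40), and Clu by Acot7 (0.41), an acyl-CoA thioesterase, Saraf (0.41) and Hnrnph3 (0.40). Apoe was followed by 1810037I17Rik (0.47), Rpl15 (0.45) and Cst3 (0.44), the last a secreted protease inhibitor made by glia, and Lrp1 by Cnbp (0.43), Marcksl1 (0.41) and Nfkbia (0.39).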

How the data were processed

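Libraries of single neurons were made by the authors with a modified Smart-seq2 protocol without strand information. Per the labels, FastQC, Trim Galore 0.4.2, STAR, Picard 1.115 and featureCounts were used with mm10. The deposited score values are TPM that the authors rounded to whole numbers; every library sums to between 999773 and 1000026, and no counts are given. Gene names and positions were taken from Gencode vM21 (GRCm38), in which 37570 of 38887 identifiers had a symbol, and promoters from RefSeq.

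Of 96 libraries 8 were left out by a rule known beforehand. For 7 of them the label and the membership in the clusters of the study's supplementary table did not match (4 were in neither cluster), so the choice depends in part on that clustering. Detection was set at 1 TPM, and differences are of mean log2(TPM + 1), which understates the change of low genes. Genes detected in at least 5% of 80 neurons were compared, and a difference of 1 was called. With no animal named, no test was made. The calculations were tested on simulated data. Calculations used SciPy 1.17.1, NumPy 2.4.6 and pandas 2.3.3 under Python 3.11.15, and matplotlib 3.10.9 drew the figures.

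The members, lists and rules were chosen with earlier results of these data known. Genes named are the 8 members, 12 relatives fixed with them, the 3 genes of highest correlation with each, the 5 lipid genes of largest difference in each direction, and markers; Lipa and Tm7sf2 were added after their values were seen. Some genes of these rules are not reported here. The pseudocount, the threshold of detection, the choice of neurons, the filter on low values and the rescaling of the total were varied.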

Additional observations from a re-analysis of the deposited data

Results flagged for a closer look

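Single negative controls stood far from the other controls for 6 of the 8 genes. The highest of the 8 controls held 297 TPM of Lpgat1, 992 TPM of Abhd3, 1886 TPM of Scd2, 58 TPM of Pgrmc1, 19839 TPM of Apoe and 1043 TPM of Clu, in each case with a gap to the next control beyond Dixon's 95% critical value. Most controls were at 0, which makes such gaps common, and chance alone flags about 1 in 20 groups. The controls NC3, NC9, NC8 and NC1 carried these values, so the high values did not come from 1 library.

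A control that was left out of the comparisons, NC6, held 13499 TPM of Abhd3 and 3906 TPM of Pgrmc1, above every control that was used, above the highest LOC for Abhd3 and above the median of the LOCs for Pgrmc1. It was labelled a control and was found in a cluster of neurons, and what it holds was not tested.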

How the results depend on the processing

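By the rule used, no class difference of the 8 genes and no difference between Onset and Sustained neurons was counted as changed. A difference counted as changed if it moved by at least the SD over neurons, or if its size was 1 or more and its sign turned. That SD, pooled over the classes, ran from 1.36 for Lrp1 to 5.19 for Abhd3. The rule could therefore hardly count a change and is no measure of stability. Of all values, 195 stayed within this spread, the interval of a share or 1.5 times a count, and 27 did not. The class difference ran from 3.28 to 7.24 for Lpgat1, 4.35 to 7.22 for Abhd3, -6.70 to -3.81 for Acly, -7.00 to -4.42 for Pgrmc1, -3.64 to -2.52 for Clu, -2.04 to -0.58 for Scd2, -0.37 to 1.06 for Apoe and -0.42 to 0.37 for Lrp1, so Scd2 fell short of 1 and Apoe passed it under single alternatives, and the signs of Apoe and Lrp1 were not stable. Between Onset and Sustained neurons, Scd2 (-0.55 to 0.37) and Lrp1 (-0.54 to 0.08) also changed sign. There, the difference of Pgrmc1 fell short of 1 with a pseudocount of 10 (-0.74) and that of Apoe with all labelled neurons (-0.68), while Acly passed it with a pseudocount of 0.1 (-1.22) and with all labelled neurons (-1.20), and Clu with a pseudocount of 0.1 (-1.25).

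The counts of lipid list genes, 3 higher in pLSOs and 7 in LOCs, moved with the scale and the choice of neurons. They were 8 and 11 with a pseudocount of 0.1 (14.7% and 9.39% of all genes), 0 and 2 with a pseudocount of 10 (2.14% and 1.59%), and 5 and 15 among neurons above the median of detected genes (10.03% and 9.52%). At or below that median 6 were higher in pLSOs (9.45%), and by a share of 25 points, an alternative added after the values were seen, 2 were higher in LOCs. Fewer neurons enter each of the 2 sets split by detected genes, and the other causes were not tested.

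Shares fell with a higher threshold. At 10 TPM they were 84.6% of pLSOs and 10.7% of LOCs for Lpgat1, 38.5% and 53.6% for Scd2, and in pLSOs 44.2% for Clu and 7.69% for Lrp1. At 100 TPM they were 69.2% of pLSOs and 7.14% of LOCs for Lpgat1, 25% and 28.6% for Scd2, 0% and 0% for Lrp1, 17.9% of LOCs for Abhd3, and in pLSOs 17.3% for Acly, 32.7% for Pgrmc1, 69.2% for Apoe and 26.9% for Clu, with 0% of controls for Acly and Pgrmc1. No paired analysis was possible because the labels give no replicate numbers or animals shared between the classes.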
